A study of Homo sapiens with 6 samples.

Results

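YAP1 and 9 genes widely used as core readouts of its activity were followed in HEK293 cells given GSK-A1 or its solvent. The set was chosen by symbol in the deposited count table and comprised YAP1, CCN1, CCN2, ANKRD1, AMOTL1, AMOTL2, LATS2, AJUBA, AXL and PTPN14, which are 10 of the 63140 genes listed there. HEK293 is an established human line made from embryonic kidney cells. GSK-A1 is an inhibitor of phosphatidylinositol 4-kinase alpha (PI4KA), the enzyme that makes phosphatidylinositol 4-phosphate at the plasma membrane. Per the labels, confluent cultures received GSK-A1 at 100 nM, or dimethyl sulfoxide (DMSO) in the control group, and were taken after 24 h. Each group held 3 libraries, described in their titles as biological replicates. No source used here says whether these came from separate cultures, so p-values measure the spread between these libraries. All 6 came from a single unmodified cell line, with a single dose and a single time.

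YAP1 encodes YAP, a transcriptional coactivator that, like its paralog TAZ (gene WWTR1), does not bind DNA itself and acts mainly through the TEAD transcription factors. In the Hippo pathway, the kinases MST1 and MST2 (genes STK4 and STK3) activate LATS1 and LATS2, which phosphorylate YAP and TAZ and keep them out of the nucleus. High cell density, as in confluent cultures, is a classical setting in which this cascade is active, and much of the pathway's biochemistry was worked out in HEK293 cells. The targets include secreted matrix-associated proteins (CCN1, CCN2), a nuclear and sarcomeric ankyrin repeat protein (ANKRD1), and several proteins that restrain YAP in turn, such as LATS2 and the angiomotin-like proteins.

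The promoters of 3 members are shown because TEAD factors recognise the sequence GGAATG, and CCN2 and ANKRD1 are textbook genes carrying it. YAP1 is set beside them as a member that carries the sequence and did not pass the test below. Each line gives the 250 bases before the annotated start in 5′ to 3′ direction of the gene, from RefSeq on GRCh38.p14, with GGAATG in capitals where it occurs. No copy on the opposite strand lies in these 3 stretches. The CCN2 stretch lies on the minus strand at chr6:131951373-131951622, the ANKRD1 stretch on the minus strand at chr10:90921088-90921337, and the YAP1 stretch on the plus strand at chr11:102110197-102110446.
CCN2: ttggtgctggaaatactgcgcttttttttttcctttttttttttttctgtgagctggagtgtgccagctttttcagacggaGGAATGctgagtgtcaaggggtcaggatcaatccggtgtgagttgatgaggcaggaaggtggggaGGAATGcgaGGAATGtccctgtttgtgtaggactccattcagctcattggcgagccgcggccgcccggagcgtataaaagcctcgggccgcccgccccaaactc
ANKRD1: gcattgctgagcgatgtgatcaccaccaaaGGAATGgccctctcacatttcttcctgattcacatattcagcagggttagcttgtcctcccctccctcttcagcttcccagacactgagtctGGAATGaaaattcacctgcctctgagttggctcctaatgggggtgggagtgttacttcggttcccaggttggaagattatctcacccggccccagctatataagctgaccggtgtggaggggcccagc
YAP1: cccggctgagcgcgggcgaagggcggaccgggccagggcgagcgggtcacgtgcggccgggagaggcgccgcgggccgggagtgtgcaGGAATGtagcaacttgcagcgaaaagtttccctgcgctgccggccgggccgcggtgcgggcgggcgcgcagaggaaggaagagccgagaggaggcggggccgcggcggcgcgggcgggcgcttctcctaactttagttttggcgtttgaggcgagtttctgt

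The search covered both strands of windows from 250 bases before to 50 after each start. RefSeq windows were matched for 9 of the 10 members, all but CCN1, and gave 12 windows because AMOTL2, AJUBA and AXL have 2 starts each. The CCN2 window held 3 copies of GGAATG, of which the nearer pair began 104 and 95 bases before the start, and the ANKRD1 window held 2. In all, 8 of the 12 windows, from 8 of the 9 members, held at least 1 copy, and 14.0% of the 35116 windows of the same length over all genes did. AMOTL1 was the member with no copy in its window. The LATS2 copy lay after the start. No member window held a CArG box, the sequence bound by serum response factor (SRF), which occurred in 1.29% of all windows. ANKRD1 alone held a match to TGANTCA, a loose search pattern for AP-1 sites in which N is any base. The matched letters were TGATTCA and overlapped no GGAATG. The pattern was found in 7.71% of all windows. These matches describe letters in the windows and were not tested as binding sites.

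Libraries held 33040178 to 47777233 counts. GSK-A1 replicate 2 stood somewhat apart. Its mean Pearson correlation with the other libraries of its group, across tested genes on the log2 scale, was 0.9947, against 0.9956 and 0.9960 for the other GSK-A1 libraries and 0.9967 to 0.9969 for the DMSO libraries. Of its counts 4.04% fell on mitochondrial genes, against 5.12% to 5.68% in the other 5. Values without it are given where a call ended or began or a value moved by over 1.5 times. Of the HEK293 markers, NEFL (715 CPM with DMSO), VIM (1085 CPM) and LIN28B (109.9 CPM) were abundant, PAX2 was low (2.71 CPM) and NEFM was close to 0 (0.142 CPM). The 6 markers of that list summed to 1970 to 2038 CPM with DMSO and 2125 to 2324 CPM with GSK-A1, a sum carried by VIM and NEFL. By edgeR, LIN28B (log2 fold change 0.29, adjusted p = 2.74e-04) and VIM (0.17, 0.00423) were higher, PAX2 was lower (-0.43, 0.0177), and NEFL and CDH2 did not pass. The part of this in the results was not tested. CPM is the usual depth-scaled count of RNA-seq, here with a composition factor per library. All 15 markers of fibroblasts, endothelium, smooth muscle, leukocytes, hepatocytes and keratinocytes were under 1 CPM in every library. The 4 fibroblast markers summed to 0.660 to 0.918 CPM with DMSO and 0.408 to 0.499 CPM with GSK-A1. The defining markers of these other cell types were thus at or near 0 in these libraries. In bulk RNA, fewer expressing cells and less RNA per cell cannot be told apart.

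With GSK-A1, 5 of the members rose and none fell at an adjusted p under 0.05 (edgeR quasi-likelihood test, Benjamini-Hochberg adjustment over 16754 genes). The mRNAs of CCN1 and CCN2, which encode secreted proteins, and of the ankyrin repeat gene ANKRD1 rose most, by 1.56-fold, 1.39-fold and 3.69-fold. Those of LATS2 and AMOTL1 rose by 1.15-fold and 1.09-fold. YAP1 itself, AMOTL2, PTPN14 and AJUBA did not pass, and AXL was too low to test. As background, 22.9% of all tested genes were called, made up of 12.0% called higher and 10.9% called lower. That background rests on 3835 genes, and on 2163 to 2213 when any 1 DMSO library is left out. The 9 tested members, all of which lay above the filter level of 0.244 CPM in all 6 libraries, thus had 55.6% called. The members were chosen with earlier results of these data known, so that share is a description only. Their median log2 fold change was 0.13, against -0.011 for all genes tested. In 7 of them the groups did not overlap, 6 higher and 1 lower, which was the case for 40.5% of all tested genes (20.2% higher and 20.4% lower). Omitting DMSO replicate 3 or GSK-A1 replicate 1 left 3 calls, those of CCN1, CCN2 and ANKRD1. Omitting GSK-A1 replicate 2 gave 6, with AJUBA added as lower. Over all genes, 4890 of 17399 tested were called without GSK-A1 replicate 2, and 2674 of 16775 without GSK-A1 replicate 1.

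**Figure D1:**
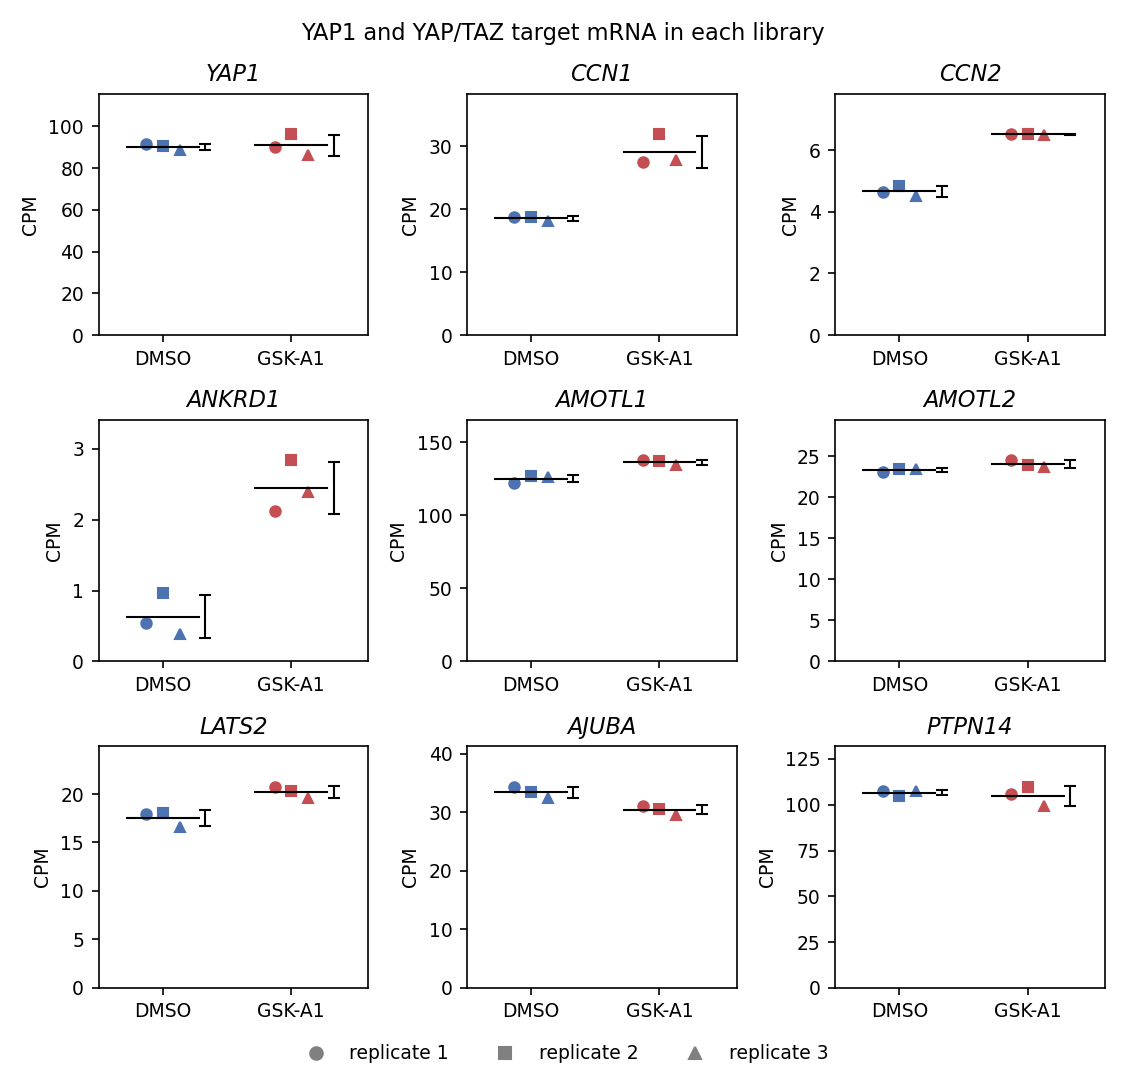
Expression of YAP1 and 8 target genes in CPM (vertical axis, from 0) in each of the 3 DMSO (blue) and 3 GSK-A1 (red) libraries. Symbols mark replicate numbers, horizontal bars the mean and whiskers the SD; the groups are separated in every panel except YAP1 and PTPN14, and AJUBA is the one panel with the GSK-A1 libraries below the DMSO libraries.

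CCN1 (ENSG00000142871), a secreted integrin-binding matrix protein that is also an immediate early gene, measured 18.8, 18.8 and 18.1 CPM in the DMSO libraries (replicates 1 to 3, as in all series of values that follow). In the GSK-A1 libraries it measured 27.4, 32.0 and 27.8 CPM. Every GSK-A1 library was above every DMSO library, with replicate 2 the highest. By edgeR the rise was 0.64 ± 0.06 on the log2 scale (SE; 95% interval 0.51 to 0.77; adjusted p = 3.72e-06). It was 0.57 when GSK-A1 replicate 2 was left out.

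CCN2 (ENSG00000118523), the connective tissue growth factor and closest relative of CCN1 among the members, was at 4.65, 4.84 and 4.496 CPM with DMSO and 6.52, 6.53 and 6.49 CPM with GSK-A1. The GSK-A1 libraries were nearly level with each other and all above the controls. On the log2 scale the rise was 0.48 ± 0.09 (SE; 95% interval 0.30 to 0.66), at an adjusted p of 8.81e-04 by edgeR. These values rest on 149 to 304 counts per library. An antisense transcript in GENCODE 29 covered 8.34% of its exonic length. That transcript is not among the genes counted here, so it has no counts to set beside those of CCN2. The libraries were made with a stranded kit, but the strand setting of the counting is not given in the sources used here.

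ANKRD1 (ENSG00000148677), the cardiac ankyrin repeat protein that is among the strongest YAP and TEAD responders in many cell types, was scarce. Its DMSO libraries held 26, 44 and 13 counts and its GSK-A1 libraries 99, 97 and 86, or 0.542, 0.967 and 0.392 CPM against 2.12, 2.84 and 2.39 CPM. The lowest GSK-A1 library was above the highest DMSO library. With edgeR the log2 difference came to 1.89 ± 0.23 (SE; 95% interval 1.40 to 2.37; adjusted p = 4.73e-05), and only 13 of the 16754 tested genes had a larger change in either direction. Its size depended on the scattered control libraries, being 2.33 without DMSO replicate 2, the highest control, and 1.69 without DMSO replicate 3, the lowest. The call held in all 16 other settings for each of ANKRD1, CCN1 and CCN2.

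The members that restrain YAP moved little. LATS2 (ENSG00000150457), a kinase that phosphorylates YAP and TAZ and is itself induced by them, stood at 17.9, 18.0 and 16.6 CPM with DMSO and 20.8, 20.4 and 19.6 CPM with GSK-A1. The groups did not overlap, and edgeR gave a log2 fold change of 0.20 ± 0.06 (SE) at an adjusted p of 0.0182. AMOTL1 (ENSG00000166025), an angiomotin family scaffold that binds the WW domains of YAP, went from 122, 127 and 126 CPM to 138, 137 and 134 CPM, again without overlap. Its log2 fold change by edgeR was 0.13 ± 0.04 (SE) with an adjusted p of 0.0206. These 2 calls were the least secure. That of LATS2 was lost without DMSO replicate 3 (edgeR adjusted p = 0.101) or GSK-A1 replicate 1 (0.0720). That of AMOTL1 was lost under upper-quartile factors (0.0992) and without any of the 3 DMSO libraries or GSK-A1 replicate 1 (0.0620 to 0.106).

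AMOTL2 (ENSG00000114019), the angiomotin family member most often used as a YAP readout, was at 23.1, 23.5 and 23.4 CPM with DMSO and 24.5, 24.0 and 23.6 CPM with GSK-A1. The groups were separate by a narrow margin, and the log2 fold change of 0.045 ± 0.05 (SE) did not pass (edgeR adjusted p = 0.564). Its 95% interval of -0.062 to 0.15 leaves out a change of the size seen in CCN1 or CCN2.

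PTPN14 (ENSG00000152104), a non-receptor phosphatase that holds YAP in the cytoplasm, ranged from 104.9 to 107.7 CPM with DMSO and from 99.3 to 109.9 CPM with GSK-A1. The GSK-A1 libraries lay on both sides of the controls (log2 fold change -0.023 ± 0.04 SE, edgeR adjusted p = 0.732). Without GSK-A1 replicate 2 the log2 fold change of PTPN14 was -0.052. AJUBA (ENSG00000129474), a LIM domain protein that binds and inhibits LATS kinases, was the one member with all GSK-A1 libraries below the controls, at 34.4, 33.4 and 32.4 CPM with DMSO and 31.0, 30.6 and 29.5 CPM with GSK-A1. Its log2 fold change was -0.14 ± 0.05 (SE) and its edgeR adjusted p of 0.0523 was just over the threshold. Under 4 other settings edgeR called it lower: upper-quartile factors (adjusted p = 0.0131), a filter at a mean of 1 CPM (0.0354), scaling to library totals alone (0.0442), and the fit that omitted GSK-A1 replicate 2 (0.0203).

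YAP1 (ENSG00000137693) stood at 91.6, 90.4 and 88.8 CPM with DMSO and 89.99, 96.4 and 86.2 CPM with GSK-A1. The GSK-A1 libraries lay around the controls, with replicate 2 above and replicate 3 below all of them. The edgeR estimate on the log2 scale was 0.0086 ± 0.04 (SE; adjusted p = 0.913), with a 95% interval in folds of 0.943 to 1.07. Its sign turned under upper-quartile factors (-0.032) and without DMSO replicate 3 (-0.0017) or GSK-A1 replicate 2 (-0.031). An antisense gene covered 9.98% of its exonic length but had at most 4 counts in a library. AXL, a receptor tyrosine kinase and YAP target in many carcinoma lines, had 0, 1 and 2 counts with DMSO and 0 in all 3 GSK-A1 libraries. A count of 0 allows up to 3 counts, or 0.0644 to 0.0879 CPM in the GSK-A1 libraries (counting error only), so no difference in AXL was detectable at this depth.

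**Figure D2:**
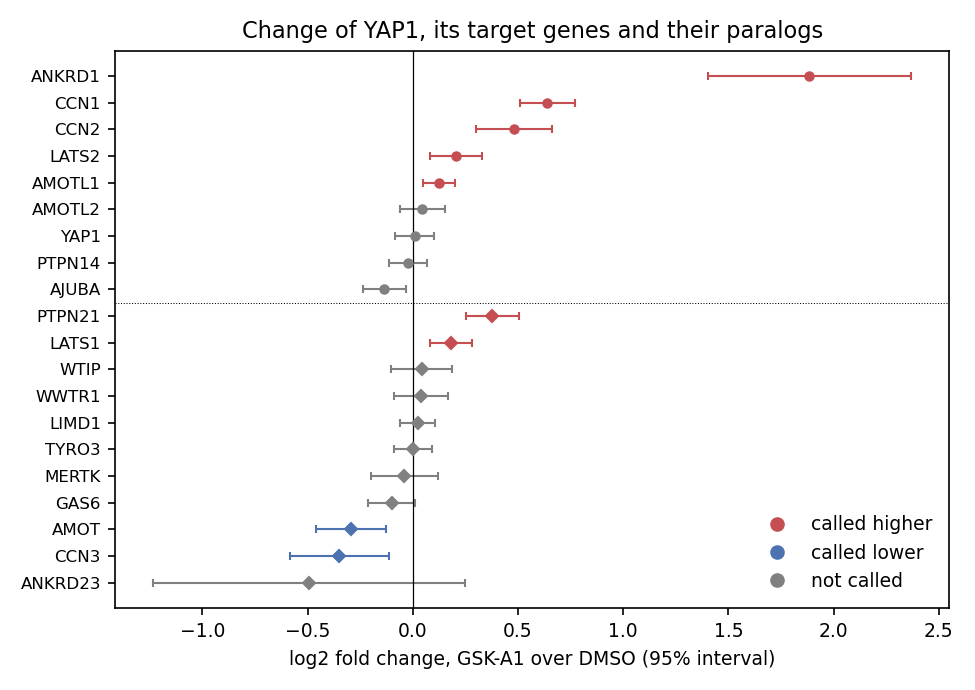
Log2 fold change of GSK-A1 over DMSO (horizontal axis) with its 95% interval for the 9 tested members (circles, above the dotted line) and the 11 tested genes of their paralog list (diamonds), which includes the AXL ligand GAS6. Red marks genes called higher, blue lower and grey not called; ANKRD1, at 1.89, stands beyond CCN1 at 0.64 and CCN2 at 0.48, and AMOT and CCN3 lie to the left of 0.

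Levels of different genes were compared per length, as CPM per kb of exonic sequence in GENCODE 29. That length sums all annotated exons, so it understates genes with many alternative ones. In DMSO, YAP1 led at 14.3 ± 0.2 CPM per kb (SD, n = 3), followed by AMOTL1 at 12.5 ± 0.2 and CCN1 at 7.57 ± 0.16. PTPN14 at 5.69 ± 0.08 and AJUBA at 5.58 ± 0.17 CPM per kb were the only neighbours whose library ranges overlapped. AMOTL2 (3.90 ± 0.03), LATS2 (3.14 ± 0.15), CCN2 (1.99 ± 0.07) and ANKRD1 (0.320 ± 0.151) followed, with AXL at 0.0053 CPM per kb last. With GSK-A1, CCN1 reached 11.8 ± 1.0 CPM per kb, close below AMOTL1 at 13.6 ± 0.2, and ANKRD1 reached 1.24 ± 0.18. The order of the members was the same in both groups. ANKRD1 was the scarcest tested member and the one with the largest log2 fold change.

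Paralogs were read beside the members to see whether family members moved alike. The list also holds GAS6, which is the ligand of AXL and not a paralog. Of 15 listed genes 11 were tested, GAS6 among them, and 2 were called higher and 2 lower, 36.4% of those tested, beside 22.9% of all genes. GAS6 was not called. PTPN21, a relative of PTPN14, rose from 16.4 ± 0.7 to 21.4 ± 1.0 CPM (SD, n = 3; log2 fold change 0.38 ± 0.06, SE; edgeR adjusted p = 3.72e-04). LATS1 rose from 71.0 ± 1.3 to 80.4 ± 5.2 CPM (0.18 ± 0.05, edgeR adjusted p = 0.0117). AMOT, the founding angiomotin, fell from 12.4 ± 0.7 to 10.1 ± 1.0 CPM (-0.29 ± 0.08, edgeR adjusted p = 0.0138). CCN3, a matrix protein of the same family as CCN1 and CCN2, fell from 3.90 ± 0.18 to 3.07 ± 0.30 CPM (-0.35 ± 0.11, edgeR adjusted p = 0.0317), a call lost with DESeq2 (adjusted p = 0.104) and on omitting any 1 DMSO library or GSK-A1 replicate 1 (0.0557 to 0.161). WWTR1, which encodes TAZ, stood at 42.8 ± 0.9 and 44.1 ± 4.5 CPM (0.041 ± 0.06, edgeR adjusted p = 0.671), a value that turned to -0.04 without GSK-A1 replicate 2 and to -0.00053 under upper-quartile factors. LIMD1 (0.023 ± 0.04) and TYRO3 (0.00058 ± 0.04) did not pass either, and both turned negative under upper-quartile factors. Without GSK-A1 replicate 2 their values were 0.046 and 0.036. Of the 4 calls, only that of PTPN21 was left when DMSO replicate 2 was omitted. Omitting DMSO replicate 3 or GSK-A1 replicate 1 left 2 calls, PTPN21 and LATS1.

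Within each library the ratio of 2 paralogs was taken. Groups were then compared with a two-sided permutation test (exact), which for 3 against 3 libraries cannot give a p below 0.1. Of 6 planned ratios 5 could be computed, AXL being at 0. The log2 ratio of CCN1 to CCN2 was 2.00 ± 0.03 (SD, n = 3) with DMSO and 2.15 ± 0.12 with GSK-A1, with no overlap (exact p = 0.1, 0.167 adjusted over 5 ratios). That difference of 0.16 was 0.088 without GSK-A1 replicate 2. The ratio of AMOTL2 to AMOTL1 was lower in every GSK-A1 library, at -2.42 ± 0.02 against -2.50 ± 0.01 (exact p = 0.1, adjusted 0.167), as was AJUBA to LIMD1, at -1.56 ± 0.08 against -1.72 ± 0.05 (exact p = 0.1, adjusted 0.167). LATS2 to LATS1 (difference 0.030, exact p = 0.7) and YAP1 to WWTR1 (difference -0.031, exact p = 0.7) overlapped between groups. Without GSK-A1 replicate 2 these differences were 0.078 and 0.0082. These are log2 ratios of CPM, not corrected for length.

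Other genes widely used as YAP and TAZ targets were read from a separate list. Of 23 listed, 19 were tested, 3 were called higher and 1 lower, 21.1% of those tested, beside 22.9% of all genes, and the median log2 fold change was 0.028. GADD45A, a stress-induced growth arrest gene, rose from 36.1 ± 1.6 to 48.7 ± 4.1 CPM (SD, n = 3; log2 fold change 0.43 ± 0.06, edgeR adjusted p = 1.10e-04). ARHGAP29 rose by 0.28 ± 0.05 (edgeR adjusted p = 7.14e-04), and TGFBR2, a receptor for TGF-beta, by 0.24 ± 0.06 (edgeR adjusted p = 0.00475). CCDC80, a secreted matrix protein, changed by -0.37 ± 0.08 (edgeR adjusted p = 0.00304). FSTL1, with the highest CPM of the list (not per length), stood at 112.6 ± 2.8 and 109.1 ± 6.1 CPM (-0.046 ± 0.04, edgeR adjusted p = 0.478), and was called lower when GSK-A1 replicate 2 was omitted (-0.087, 0.0340).

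**Figure D3:**
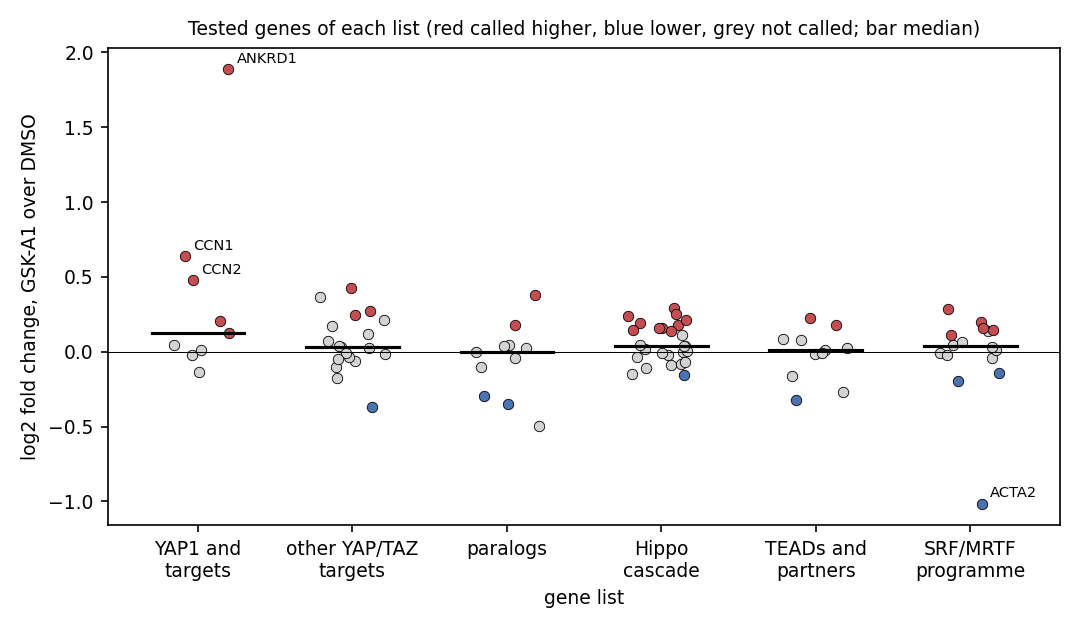
Log2 fold change of GSK-A1 over DMSO (vertical axis) for the tested genes of 6 lists, 1 point per gene, with the list median as a bar. Red points were called higher, blue lower and grey not called; the median is 0.13 for YAP1 and its core targets and lies between 0.00058 and 0.039 for the other lists.

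Upstream components of the Hippo cascade were called higher more often than lower. This list, like the others, was chosen with earlier results of these data known, so its shares only describe it. All 26 listed genes were tested, and 10 were called higher and 1 lower, 42.3% of the list (38.5% higher), beside 22.9% of all tested genes (12.0% higher), with a median log2 fold change of 0.039. SAV1, the scaffold of the MST kinases, rose from 34.6 ± 1.6 to 42.5 ± 2.7 CPM (SD, n = 3; log2 fold change 0.29 ± 0.05, edgeR adjusted p = 0.00112). WWC2, a relative of the scaffold KIBRA, rose by 0.25 ± 0.04 (edgeR adjusted p = 6.29e-04), the kinases TAOK3 and TAOK1 by 0.24 ± 0.05 and 0.16 ± 0.04, and STRN, a subunit of the phosphatase complex that opposes the MST kinases, by 0.21 ± 0.05 (edgeR adjusted p at most 0.00746). MOB1A, the LATS coactivator and the gene with the highest CPM of the list (not per length), rose by 0.16 ± 0.05 (edgeR adjusted p = 0.0260). MOB1A was no longer called with upper-quartile factors (0.0749) or on omitting any 1 DMSO library (0.0633 to 0.128). Its value was 0.0991 after removal of the GC trend and 0.0975 on omitting GSK-A1 replicate 2. The kinases STK3 and STK4 themselves (0.19 ± 0.05 and 0.15 ± 0.04), the coactivator MOB1B (0.18 ± 0.05) and WWC1, which encodes KIBRA (0.14 ± 0.04), were the others called higher (edgeR adjusted p at most 0.0384). They and MAP4K4 were named after their values were seen, and their values in the other settings are not given. MAP4K4, another upstream kinase, was the gene called lower (-0.16 ± 0.04, edgeR adjusted p = 0.00847). Upper-quartile factors left 7 of the cascade called, 6 higher and 1 lower, and the list median was then -0.0015. Over all genes that fit called 4027, of which 1339 were higher and 2688 lower. Omitting DMSO replicate 1 or 2 also left 7 of the cascade, and omitting DMSO replicate 3 left 6. Those 3 fits called 2163, 2213 and 2206 over all genes. Opposite-strand genes covered 25.9% of the exonic length of WWC2 and 14.9% of that of SAV1.

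Among TEAD factors and other partners, 11 of 12 were tested and 2 were called higher and 1 lower, 27.3% of those tested, beside 22.9% of all genes, with a median of 0.0085. TEAD1, with the highest CPM of the list (not per length), stood at 102.4 ± 1.9 and 107.9 ± 2.3 CPM (SD, n = 3; log2 fold change 0.08 ± 0.04, edgeR adjusted p = 0.166). TEAD2 fell from 35.9 ± 0.4 to 28.7 ± 1.5 CPM (-0.32 ± 0.05, edgeR adjusted p = 3.25e-04), with 10.7% of its exonic length under a gene on the opposite strand. TEAD4 rose from 39.1 ± 0.6 to 44.2 ± 1.8 CPM (0.18 ± 0.05, edgeR adjusted p = 0.0125) and VGLL3, a TEAD-binding cofactor, by 0.22 ± 0.07 (edgeR adjusted p = 0.0296). The VGLL3 call was lost on omitting GSK-A1 replicate 2 (0.0539) or any 1 DMSO library (0.0597 to 0.135), and under upper-quartile factors (0.0626). That of TEAD4 was lost on omitting DMSO replicate 2 (0.0723) or 3 (0.0513), and its value was 0.27 with the GC trend removed. TEAD3 (0.0085 ± 0.06) did not pass, and its sign turned under upper-quartile factors. Its value was 0.034 without GSK-A1 replicate 2. Without DMSO replicate 2 or 3 only TEAD2 of this list was called.

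CCN1, CCN2 and ANKRD1 are also known to respond to SRF and its actin-regulated MRTF cofactors, so that programme was read in the same fit. Of 18 genes 16 were tested, 5 called higher and 3 lower, so 8 of 16, beside 22.9% of all tested genes (12.0% higher, 10.9% lower), with a median of 0.037. SRF (-0.022 ± 0.04, edgeR adjusted p = 0.761) and the cofactor MRTFB (-0.0085 ± 0.05, 0.922) did not pass. The cofactor MRTFA was called higher (0.14 ± 0.04, edgeR adjusted p = 0.0263) and TPM1 lower (-0.20 ± 0.05, 0.00678). SRF, MRTFA, MRTFB and TPM1 were named after their values were seen, and their values in the other settings are not given. ZYX, VCL and CNN3, cytoskeletal proteins of adhesions and stress fibres, rose by 0.28 ± 0.04, 0.16 ± 0.03 and 0.20 ± 0.04 (edgeR adjusted p at most 0.00220). ACTA2, smooth muscle actin, fell from 18.5 ± 3.2 to 9.11 ± 0.58 CPM (SD, n = 3; -1.01 ± 0.12, edgeR adjusted p = 4.43e-04), and ACTB fell from 2155 ± 15 to 1951 ± 18 CPM (-0.14 ± 0.03, edgeR adjusted p = 0.00160), a call lost with the GC trend removed (-0.081, 0.0858). With DMSO the highest CPM of the list (not per length) was that of ACTG1, at 2983 (-0.044 ± 0.03, edgeR adjusted p = 0.273). With GSK-A1 it was that of FLNA, at 3065 CPM, against 2842 CPM with DMSO. FLNA rose by 0.11 ± 0.03 (edgeR adjusted p = 0.0179). The settings in which that call was lost included upper-quartile factors (0.136) and omission of any 1 DMSO library or GSK-A1 replicate 1 (0.0526 to 0.0964). Opposite-strand genes covered 30.1% of the exonic length of ACTA2, 21.4% of that of TPM1 and 11.1% of that of VCL. Omitting DMSO replicate 3 left 5 calls. Upper-quartile factors left 7, of which 3 were higher and 4 lower, with a list median of -0.0036. Over all genes that fit called 1339 higher and 2688 lower.

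**Figure D4:**
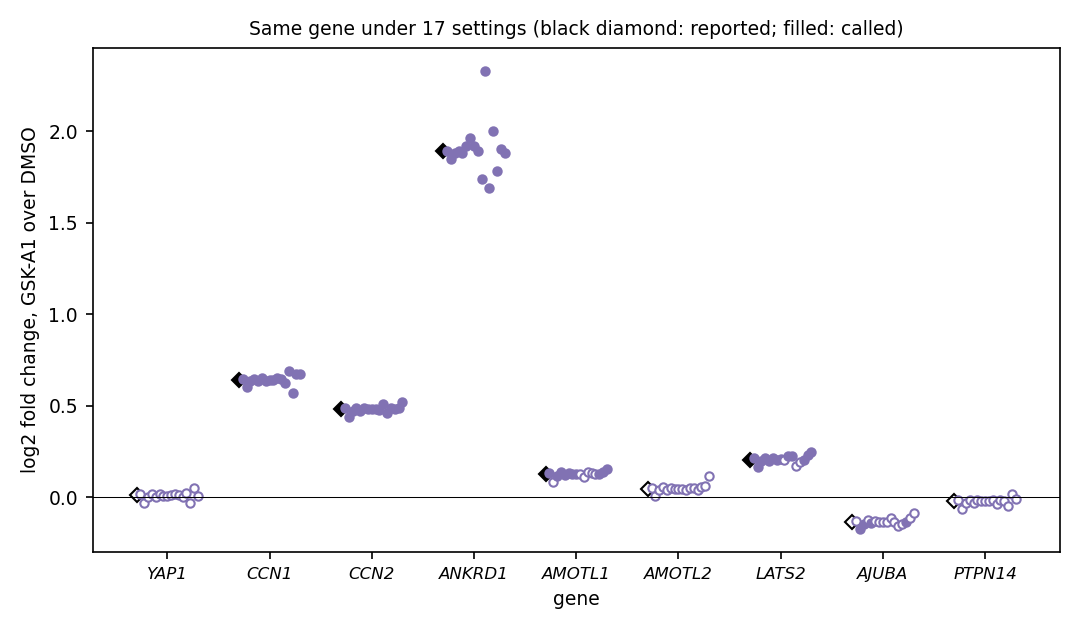
Log2 fold change of GSK-A1 over DMSO (vertical axis) for each tested member under the reported fit (black diamond) and 16 other settings (circles), filled where the gene was called. CCN1, CCN2 and ANKRD1 are filled throughout, ANKRD1 between 1.69 and 2.33; AMOTL1, LATS2 and AJUBA change between filled and open; YAP1, AMOTL2 and PTPN14 are open throughout.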

How the data were processed

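RNA from 6 HEK293 libraries (3 DMSO, 3 GSK-A1) was sequenced after a stranded library preparation, per the labels' protocols. The deposited table holds raw counts per gene made by the authors; the submitters' processing notes name cutadapt 5.1, STAR 2.7.11b, featureCounts of Subread 2.1.1, DESeq2 1.38.0 and GRCh38.p13. Annotation release and strand setting are not given in the sources used here.

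Genes were kept by filterByExpr (smallest count 10, smallest total 15), scaled with TMM factors and tested with edgeR 4.0.16 in R 4.3.3 (quasi-likelihood F test, robust, no block), with Benjamini-Hochberg adjustment over all genes tested. SE comes from the log2 coefficient and its F value (coefficient over root F). Counting intervals and floors cover counting error only. Alternatives used other factors, filters, limma-voom (limma 3.58.1), DESeq2 1.42.0, a replicate block, a stricter threshold and 1 library fewer; removal of the GC trend (loess, span 0.3) was added after seeing the data. The code was tested on simulated data, where the share of false calls was somewhat above its nominal level in most runs. Exonic lengths and overlaps are from GENCODE 29.

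Members and lists were chosen with earlier results of these data known. Genes named were all members, both genes of each ratio, WWTR1, TEAD1 to TEAD4, and of each other list up to 5 called genes with the smallest p and the gene with the highest CPM. Some further genes of the Hippo cascade and SRF lists were named after their values were seen.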

Additional observations from a re-analysis of the deposited data

How the results depend on the processing

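CCN1, CCN2 and ANKRD1 kept their direction and call in all 16 other settings, with log2 fold changes of 0.571 to 0.689, 0.439 to 0.520 and 1.69 to 2.33. At an adjusted p under 0.01 the calls were 1871 over all genes, 3 members, 1 paralog, 6 Hippo cascade genes and 1 TEAD or partner gene. Under upper-quartile factors 7 Hippo cascade genes were called, 33.3% of all calls were higher against 52.3% in the reported fit, and the signs turned for YAP1 (-0.032), WWTR1 (-0.00053), TYRO3 (-0.040), LIMD1 (-0.018) and TEAD3 (-0.032). With the GC trend removed 64.4% of all calls were higher. TYRO3 was also negative with library totals only (-0.0076), with a filter at a mean of 1 CPM (-0.0066) and under the replicate block (-0.00053). For fits that left out 1 library, calls ranged from 2163 to 4890 over all genes, 3 to 6 for the members, 4 to 5 for other targets, 1 to 4 for paralogs, 6 to 12 for the Hippo cascade, 1 to 3 for TEADs and partners and 5 to 9 for the SRF programme. In these fits the log2 fold change ranged from -0.031 to 0.048 for YAP1, -0.040 to 0.095 for WWTR1, -0.016 to 0.036 for TYRO3, -0.015 to 0.034 for TEAD3 and -0.052 to 0.018 for PTPN14. The ratio difference ranged from -0.018 to 0.078 for LATS2 to LATS1 and from -0.068 to 0.0082 for YAP1 to WWTR1. The cause was not tested. For all genes, the members and every list, the counts moved by less than 1.5 times under RLE factors, without a count filter, with DESeq2 and with limma-voom.

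The groups share replicate numbers, but deviations of same-numbered libraries correlated at only 0.011, 0.019 and 0.032. Numbers 2 and 3 correlated best with their own number, and number 1 narrowly did not (0.0109 against 0.0117 with another number). As these correlations were all low, the numbers were not taken as pairs. With the replicate number as a block 4127 genes and 5 members were called, with AMOTL1 at 0.13 and LATS2 at 0.21. Permuted within numbers, the ratio difference of CCN1 to CCN2 was 0.16 (exact p = 0.25, the smallest that design allows). Depth limits ANKRD1, with 13 to 99 counts per library, and AXL, with at most 2.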
